A study of Mus musculus with 9 samples.

Results

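The 10 genes described here are transcriptional targets of β-catenin (Axin2, Rnf43, Znrf3, Lgr5 and Tbx3) and genes expressed by the hepatocytes around the central vein of the liver lobule (Glul, Oat, Slc1a2, Cyp2e1 and Lect2). They were chosen by symbol, as the rows of the deposited count table whose Ensembl mouse identifier carries these symbols in GENCODE release M21. All 10 were found among the 54393 rows, and all 10 passed the filter on low counts that left 14873 genes for testing. The RNA-seq libraries came from liver: 4 from mice that received non-absorbable antibiotics, given to deplete the gut microbiota, and 5 from control mice labelled as without antibiotics. All carry the strain label C56Bl/6j and the diet label AIN-76a, and the antibiotics libraries are numbered 1, 2, 3 and 5. Which antibiotics were used, at what dose and for how long, and the age of the animals do not appear in the labels. Nor do the labels tie each library to a separate animal, so the p-values describe variation among libraries, part of which may be technical.

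In the liver, endothelial cells of the central vein secrete Wnt ligands and R-spondins. These ligands stabilise β-catenin in the neighbouring hepatocytes, where it enters the nucleus with TCF factors and switches on its targets. The resulting gradient separates pericentral hepatocytes, which make glutamine and carry much of the cytochrome P450 activity, from periportal hepatocytes, which make urea and glucose. Several targets are themselves brakes on the pathway: Axin2 is a scaffold of the complex that destroys β-catenin, and the membrane ubiquitin ligases Rnf43 and Znrf3 remove Frizzled receptors from the cell surface. Lgr5 is a receptor for R-spondins, which hold these ligases in check, and Tbx3 is a transcription factor induced by β-catenin in liver.

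Antibiotic treatment went with more transcript of 2 of the 10 genes, Rnf43 and Oat, by edgeR's quasi-likelihood test (adjusted p under 0.05 over all tested genes), and with less of none. Among all tested genes 2.68% passed this test, 1.63% as higher and 1.05% as lower. DESeq2 called 4 of the 10, adding Cyp2e1 and Slc1a2, but also called more genes in all, 976 of 14873. The limma-voom test called 2 of the 10 and 413 of 14873. At an unadjusted p under 0.05 in edgeR the count among the 10 was also 4, where 18.5% of all tested genes reached that level. These were the same 4 genes whose libraries did not overlap between the groups, a state found in 8.88% of all tested genes, and all 4 were higher with antibiotics. The median log2 fold change was 0.09 over the 5 β-catenin targets and 0.26 over the 5 pericentral genes, against -0.01 over all tested genes.

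The libraries held 15422891 to 59179622 estimated counts with antibiotics and 28156248 to 49628737 in controls. The deepest was antibiotics library 5, whereas antibiotics libraries 1, 2 and 3 had smaller totals than any control. Values below are normalised read counts as CPM (10 to the power 6 times the share of a TMM-scaled library total). The summed level of 8 hepatocyte markers was 96520 to 106300 CPM with antibiotics and 101700 to 112200 CPM in controls, with 0 of 8 passing the test. The 12 endothelial markers summed to 342 to 352 CPM with antibiotics and 324 to 405 CPM in controls, again with 0 of 12 passing. In both marker lists no marker was at 0 in every library.

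Promoter sequences from RefSeq (GRCm38.p6) were available for 7 of the 10 genes as 8 windows, of which the 250 bases before the annotated start were searched. The letters searched were CTTTGAT and CTTTGAA, the forms bound by TCF and LEF factors, the HNF1 core GTTAAT and the TATA box TATAAA, each on both strands; none of the matches overlapped. The 4 windows shown are Oat, which passed the test, Glul, whose antibiotics libraries spread least, and Cyp2e1 and Lect2, pericentral genes with a TCF letter match. Capitals mark every match in the printed bases, and sequences run 5′ to 3′ on the gene's own strand. The Oat window (chr7:132576399-132576648, minus strand) and the Glul window (chr1:153899679-153899928, plus strand) held no match. The Cyp2e1 window held CTTTGAA 135 bases before the RefSeq start and TATAAA 31 bases before it, and is printed up to the first exon of the gene in GENCODE (chr7:140763569-140763738, plus strand), which leaves TATAAA outside the printed bases. The Lect2 window (chr13:56548539-56548788, minus strand) held GTTAAT 78 bases before the start and ATCAAAG, the reverse complement of CTTTGAT, 32 bases before it.
Oat: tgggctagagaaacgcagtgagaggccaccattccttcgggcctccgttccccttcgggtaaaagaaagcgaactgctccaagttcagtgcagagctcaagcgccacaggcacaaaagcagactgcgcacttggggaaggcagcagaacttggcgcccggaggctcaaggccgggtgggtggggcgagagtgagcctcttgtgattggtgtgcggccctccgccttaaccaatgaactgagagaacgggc
Glul: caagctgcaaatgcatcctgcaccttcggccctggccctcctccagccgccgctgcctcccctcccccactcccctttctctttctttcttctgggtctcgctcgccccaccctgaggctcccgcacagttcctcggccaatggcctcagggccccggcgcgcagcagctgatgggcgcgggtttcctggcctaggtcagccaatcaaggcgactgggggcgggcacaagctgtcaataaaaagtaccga
Cyp2e1: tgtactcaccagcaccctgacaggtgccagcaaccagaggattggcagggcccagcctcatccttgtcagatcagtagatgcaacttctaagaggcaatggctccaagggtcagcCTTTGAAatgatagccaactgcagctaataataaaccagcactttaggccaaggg
Lect2: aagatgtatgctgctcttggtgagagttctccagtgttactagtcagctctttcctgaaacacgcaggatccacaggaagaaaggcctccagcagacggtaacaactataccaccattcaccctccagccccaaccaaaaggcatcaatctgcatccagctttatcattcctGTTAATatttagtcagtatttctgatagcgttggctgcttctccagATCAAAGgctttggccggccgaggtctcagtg
Among all 32851 promoter windows, 7.48% held CTTTGAT or CTTTGAA, 6.43% held GTTAAT and 12.4% held TATAAA. The window of Slc1a2 also held ATCAAAG, 207 bases before an annotated start inside the gene, and both Rnf43 windows and that of Axin2 held none of the letters. A match is a run of letters in this window and not a shown binding site, and a window without one says nothing about the factor.

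Rnf43 had the clearest difference among the β-catenin targets. This ligase gene (ENSMUSG00000034177.15, GRCm38 chromosome 11, 87662722 to 87735539, plus strand) measured 19.4, 23.3, 21.2 and 26.9 CPM in antibiotics libraries 1, 2, 3 and 5, and 14.4, 11.6, 18.4, 13.6 and 14.5 CPM in control libraries 1 to 5. Every antibiotics library lay above every control, with the nearest pair being antibiotics library 1 and control library 3. The mean was 22.7 ± 3.24 CPM with antibiotics (SD, n = 4) and 14.5 ± 2.47 CPM in controls (SD, n = 5). The log2 fold change was 0.65 ± 0.13 (SE), or 1.57-fold with a 95% confidence interval of 1.29 to 1.92, and edgeR's adjusted p was 0.0323. In bulk tissue, a change in the number of cells that express a gene and a change in its transcript per cell cannot be told apart. Leaving out 1 library kept the log2 fold change between 0.56 and 0.75, and a call remained only when control library 3 (adjusted p = 0.0142) or control library 5 (0.0399) was the one omitted. Without antibiotics libraries 1, 2, 3 and 5 the adjusted p was 0.0584, 0.0673, 0.0725 and 0.0997, and without control libraries 1, 2 and 4 it was 0.0614, 0.0554 and 0.0645. The highest value came from the deepest library, antibiotics library 5. With all libraries thinned to the smallest total the log2 fold change was 0.65 (adjusted p = 0.0299).

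Znrf3, the second ligase of this pair (ENSMUSG00000041961.14, chromosome 11, 5276324 to 5444847, minus strand), had close to equal levels in both groups. It measured 10.2, 9.47, 9.39 and 10.8 CPM in antibiotics libraries 1, 2, 3 and 5, and 9.28, 8.35, 11.9, 11.2 and 8.33 CPM in control libraries 1 to 5. All 4 antibiotics values fell inside the control range. The log2 fold change was 0.03 ± 0.12 (SE, adjusted p = 0.934), with a 95% interval of 0.845-fold to 1.23-fold, so a change of the size seen in Rnf43 lies outside it. The difference between the ligases was tested on their ratio within each library, which does not depend on library scaling. All 8 ratios were chosen with earlier results of these data known, so their p-values are not independent support for the differences. The log2 ratio of Rnf43 to Znrf3 counts averaged 1.18 ± 0.18 with antibiotics (SD, n = 4) and 0.56 ± 0.20 in controls (SD, n = 5), without overlap. Over all ways to split the 9 libraries into 4 and 5, a two-sided exact permutation test gave p = 0.00794, the smallest the design allows, and an adjusted p of 0.0212 over the 8 ratios tested. The call was lost without control library 1, 2 or 5 (adjusted p = 0.0571 in each case), with a difference of 0.59 to 0.67 there against 0.61 over all libraries. With 4 libraries in each group the smallest exact permutation p is 0.0286, and this ratio reached it in those 3 cases. As 4 of the 8 ratios did so, it adjusted to 0.0571, so the loss alone does not mark a weaker difference. Without control library 3 or 4, where 5 ratios passed, this ratio kept its call (adjusted p = 0.0457 in both cases).

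Axin2, the most widely used readout of β-catenin activity (ENSMUSG00000000142.15, chromosome 11, 108920349 to 108950783, plus strand), did not pass. It measured 5.23, 5.35, 5.30 and 6.69 CPM in antibiotics libraries 1, 2, 3 and 5, and 4.20, 4.11, 6.65, 4.67 and 7.23 CPM in control libraries 1 to 5. Controls spread more widely than the antibiotics libraries, with control libraries 3 and 5 high and the other 3 low. Its log2 fold change was 0.09 ± 0.19 (SE, adjusted p = 0.837), with a 95% interval of 0.802-fold to 1.42-fold. Counts were modest, from 80 to 416 per library. The log2 ratio of Rnf43 to Axin2 averaged 2.00 ± 0.10 with antibiotics (SD, n = 4) and 1.46 ± 0.28 in controls (SD, n = 5), a difference of 0.54 that passed over the 8 ratios (exact permutation p = 0.0159, adjusted p = 0.0317). Omitting antibiotics library 2 ended this call (adjusted p = 0.0714), as did omitting control library 1, 2 or 5 (0.0571 each). Those 0.0571 values again stood at the floor of 4 libraries against 4. That of Znrf3 to Axin2 differed by -0.07 (exact permutation p = 0.817, adjusted p = 0.817).

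Lgr5, the R-spondin receptor (ENSMUSG00000020140.15, chromosome 10, 115450311 to 115587780, minus strand), was the least abundant of the 10 genes. It measured 2.09, 1.84, 2.54 and 2.91 CPM in antibiotics libraries 1, 2, 3 and 5, and 4.12, 2.91, 4.05, 2.47 and 2.46 CPM in control libraries 1 to 5. Values were lower on average with antibiotics, but the groups overlapped. The log2 fold change was -0.42 ± 0.22 (SE, adjusted p = 0.324), from counts of 32 to 181. Lgr4, the related R-spondin receptor that hepatocytes express more broadly, measured 51.6 ± 5.56 CPM with antibiotics (SD, n = 4) and 49.7 ± 9.28 CPM in controls (SD, n = 5). The log2 ratio of Lgr5 to Lgr4 was lower with antibiotics by 0.49 in size (difference -0.49), which did not pass over the 8 ratios (exact permutation p = 0.0476, adjusted p = 0.0726) except without control library 4 (adjusted p = 0.0457).

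Tbx3 (ENSMUSG00000018604.18, chromosome 5, 119670669 to 119684724, plus strand) varied most between libraries of a group. It measured 15.1, 12.98, 19.4 and 25.5 CPM in antibiotics libraries 1, 2, 3 and 5, and 8.46, 7.46, 17.7, 12.3 and 20.4 CPM in control libraries 1 to 5. Its coefficient of variation was 30.3% with antibiotics and 42.6% in controls, the widest of the 10 genes in both groups. Its log2 fold change was 0.49 ± 0.30 (SE, adjusted p = 0.416). As with Axin2, control libraries 3 and 5 were the highest controls and antibiotics library 5 the highest of its group. Exons of Tbx3 overlap the antisense gene Tbx3os1 by 115 bases. That gene held 35 to 224 counts per library, and no label says whether the authors counted by strand.

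**Figure D1:**
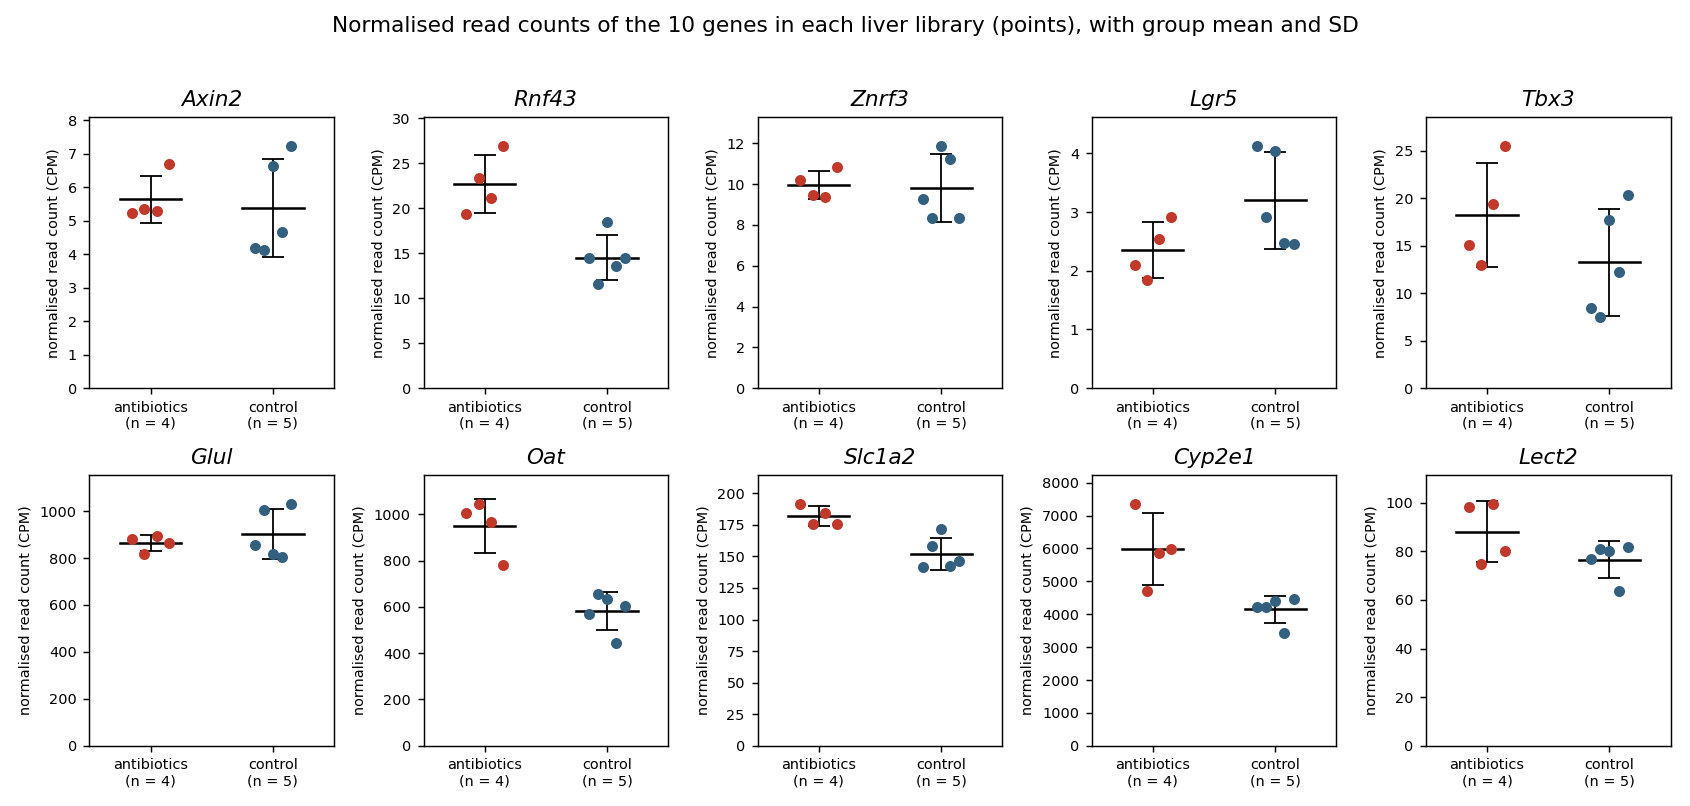
Normalised read count (CPM, linear axes from 0) of each of the 10 genes in the 4 antibiotics libraries (left, red) and the 5 control libraries (right, blue); bars are the group mean and SD. Rnf43, Oat, Slc1a2 and Cyp2e1 show every antibiotics library above every control, while the groups overlap for the other 6 genes.

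Among the pericentral genes Oat had the largest difference. It encodes ornithine aminotransferase (ENSMUSG00000030934.9, chromosome 7, 132557478 to 132576398, minus strand), the mitochondrial enzyme that turns ornithine into glutamate semialdehyde, a step towards glutamate and then glutamine. It measured 1007, 1045, 967 and 782 CPM in antibiotics libraries 1, 2, 3 and 5, and 571, 654, 635, 445 and 604 CPM in control libraries 1 to 5. All 4 antibiotics libraries exceeded the highest control, control library 2. The mean was 950.0 ± 117 CPM with antibiotics (SD, n = 4) and 582 ± 82.5 CPM in controls (SD, n = 5), and edgeR gave a log2 fold change of 0.71 ± 0.13 (SE) with adjusted p = 0.0200, or 1.63-fold (95% interval 1.35 to 1.98). The call was lost without antibiotics library 1 (adjusted p = 0.0678) and without antibiotics library 3 (0.0647), and held in the other 7 fits that left out 1 library. The summed level of the 13 mitochondrially encoded mRNAs, used as a sign of RNA quality, was 64210, 73680, 72340 and 49450 CPM in antibiotics libraries 1, 2, 3 and 5, and 44870 to 65260 CPM in controls. Antibiotics library 2 had the highest of both values in its group and library 5 the lowest of both, and the part of this sum in the Oat result was not tested.

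Glul, glutamine synthetase (ENSMUSG00000026473.15, chromosome 1, 153899944 to 153909723, plus strand), is restricted to the innermost pericentral hepatocytes and lost from liver when β-catenin is deleted in mice. It measured 883, 816, 895 and 864 CPM in antibiotics libraries 1, 2, 3 and 5, and 855, 1004, 817, 803 and 1031 CPM in control libraries 1 to 5. The antibiotics libraries sat inside the control range and had the narrowest spread of all 10 genes, with a coefficient of variation of 3.99%. Its log2 fold change was -0.06 ± 0.10 (SE, adjusted p = 0.792), with a 95% interval of 0.824-fold to 1.11-fold. Its near copy Glns-ps1 (96.8% identity over 1126 nt) held at most 7 counts. Within libraries the log2 ratio of Oat to Glul averaged 0.13 ± 0.21 with antibiotics (SD, n = 4) and -0.64 ± 0.19 in controls (SD, n = 5), without overlap (exact permutation p = 0.00794, adjusted p = 0.0212). This call too was lost without control library 1, 2 or 5 (adjusted p = 0.0571 each), at the same floor of 4 libraries against 4.

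Cyp2e1 (ENSMUSG00000025479.9, chromosome 7, 140763739 to 140774987, plus strand), the cytochrome P450 that oxidises ethanol and paracetamol, was the most abundant of the 10 genes. It measured 7358, 4700, 5873 and 5998 CPM in antibiotics libraries 1, 2, 3 and 5, and 4235, 4215, 4398, 3435 and 4464 CPM in control libraries 1 to 5. The groups did not overlap, although antibiotics library 2 lay close to control library 5. The mean was 5982 ± 1088 CPM with antibiotics (SD, n = 4) and 4149 ± 413 CPM in controls (SD, n = 5). The log2 fold change of 0.53 ± 0.14 (SE) missed the threshold with edgeR (adjusted p = 0.0662) and passed with DESeq2 (adjusted p = 0.00249) and, with edgeR, without antibiotics library 2 (0.0486). Within libraries the log2 ratio of Cyp2e1 to Glul averaged 2.77 ± 0.22 with antibiotics (SD, n = 4) and 2.20 ± 0.16 in controls (SD, n = 5). This difference passed over the 8 ratios (exact permutation p = 0.00794, adjusted p = 0.0212). It did not pass without control library 1, 2 or 5 (adjusted p = 0.0571 each), where it stood at the floor of 4 libraries against 4.

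Slc1a2, a glutamate transporter best known from astrocytes and confined in liver to pericentral hepatocytes (ENSMUSG00000005089.15, chromosome 2, 102658659 to 102790784, plus strand), differed by less but with a small spread. It measured 192, 176, 184 and 175 CPM in antibiotics libraries 1, 2, 3 and 5, and 141, 158, 172, 143 and 146 CPM in control libraries 1 to 5. The lowest antibiotics library, library 5, was just above the highest control, library 3. The log2 fold change of 0.26 ± 0.08 (SE) had an adjusted p of 0.0902 with edgeR and 0.0236 with DESeq2, and 0.0452 with edgeR without control library 3. Lect2, a secreted protein first described as a leukocyte chemotactic factor (ENSMUSG00000021539.9, chromosome 13, 56542464 to 56548502, minus strand), measured 98.2, 74.8, 99.6 and 80.0 CPM in antibiotics libraries 1, 2, 3 and 5. Its control libraries 1 to 5 measured 76.7, 81.1, 80.1, 63.6 and 81.8 CPM. Antibiotics libraries 1 and 3 lay above every control and libraries 2 and 5 did not, and the log2 fold change was 0.20 ± 0.11 (SE, adjusted p = 0.342). The log2 ratio of Lect2 to Glul differed by 0.25 (exact permutation p = 0.0556, adjusted p = 0.0726), a result past the threshold when control library 3 was omitted (0.0457).

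**Figure D2:**
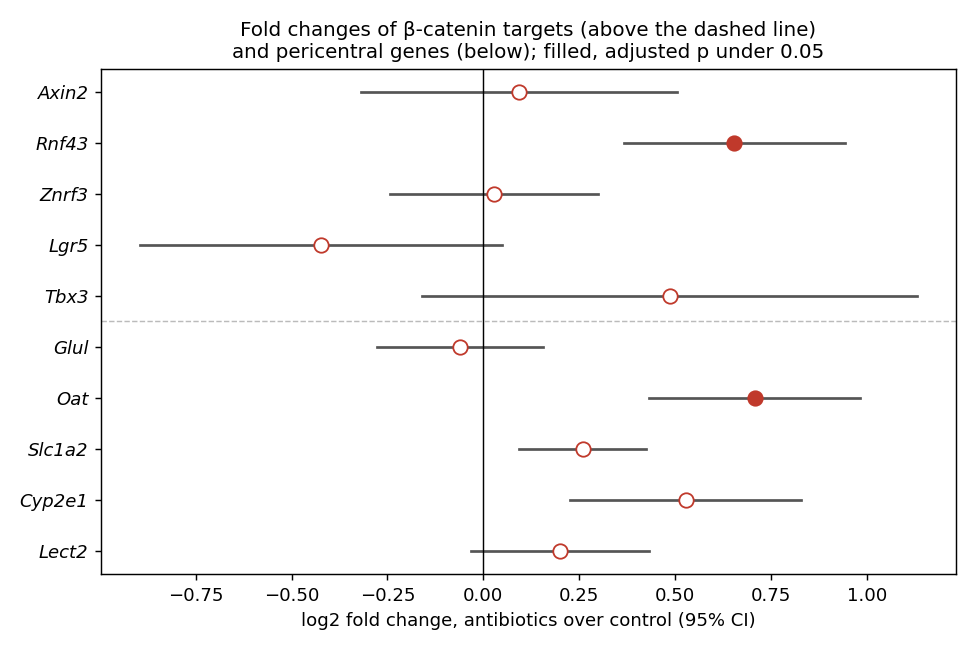
Log2 fold change of each gene, antibiotics over control, with its 95% confidence interval from the quasi-likelihood fit; filled points had an adjusted p under 0.05. Rnf43 (0.65) and Oat (0.71) are filled, the intervals of Cyp2e1 and Slc1a2 also stay above 0, and Axin2, Znrf3 and Glul are centred near 0.

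Across libraries the members did not move as a block. Antibiotics library 5 held the highest value of its group for 5 of the 10 genes, which were the 5 β-catenin targets, and antibiotics library 2 the lowest for 5. In controls, library 5 was highest for 5 genes and library 4 lowest for 4. Tbx3 spanned from -0.71 (control library 2) to 1.05 (antibiotics library 5) on the log2 scale relative to the control mean, whereas Glul stayed between -0.16 and 0.20. Among the antibiotics libraries, library 5 had the lowest Oat value (0.44) and the highest Rnf43 value (0.90), while Oat was highest in library 2 (0.86) and Rnf43 lowest in library 1 (0.43).

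**Figure D3:**
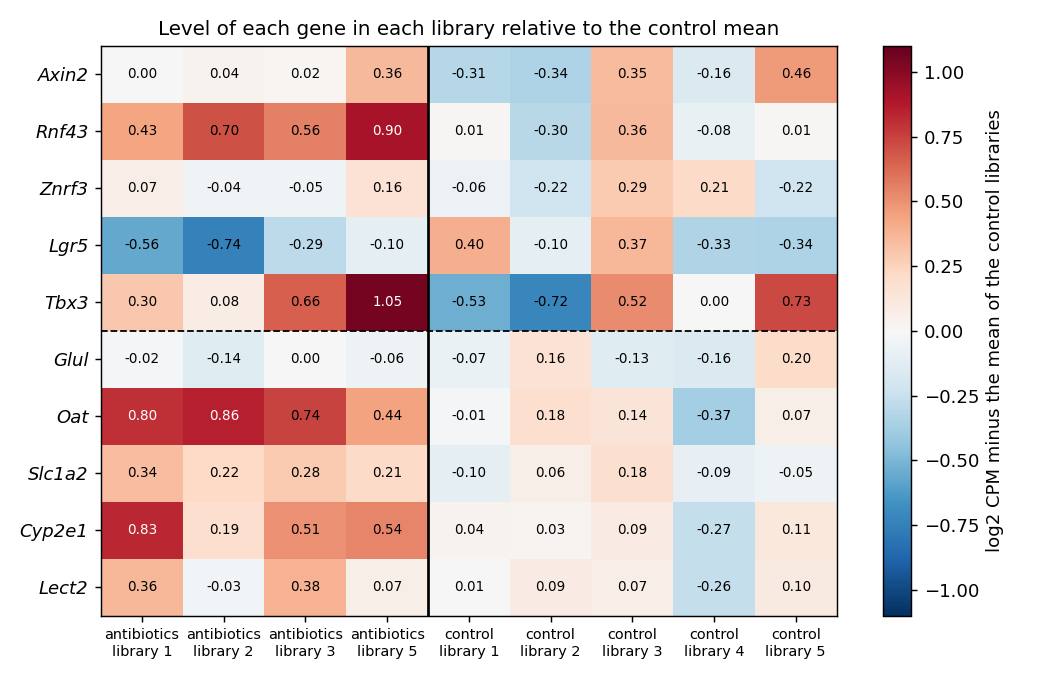
Log2 CPM of each gene (rows) in each library (columns) minus the mean of the control libraries; antibiotics libraries stand left of the solid line, β-catenin targets above the dashed line. The row of Rnf43 is positive in all 4 antibiotics libraries (0.43 to 0.90) and so is that of Oat (0.44 to 0.86), while the row of Lgr5 is negative in all 4.

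To compare the genes with each other, levels were divided by the length of their annotated exons in kilobases (kb), a scale that depends on the transcripts annotated. With antibiotics the order per kb ran from Cyp2e1 (2772 ± 504 CPM per kb, SD, n = 4) through Oat (403 ± 49.5), Glul (260.1 ± 10.4), Lect2 (95.9 ± 13.7) and Slc1a2 (13.8 ± 0.59) to the β-catenin targets. Those were Rnf43 (3.46 ± 0.49 CPM per kb), Tbx3 (2.75 ± 0.83), Znrf3 (1.26 ± 0.09), Axin2 (1.03 ± 0.13) and Lgr5 (0.23 ± 0.05). In controls the order was the same except that Glul (271 ± 32.4 CPM per kb, SD, n = 5) stood above Oat (247 ± 35.0), and these neighbours overlapped. The ranges of Rnf43 and Tbx3 and of Znrf3 and Axin2 overlapped in both groups, and those of Tbx3 and Znrf3 in controls.

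**Figure D4:**
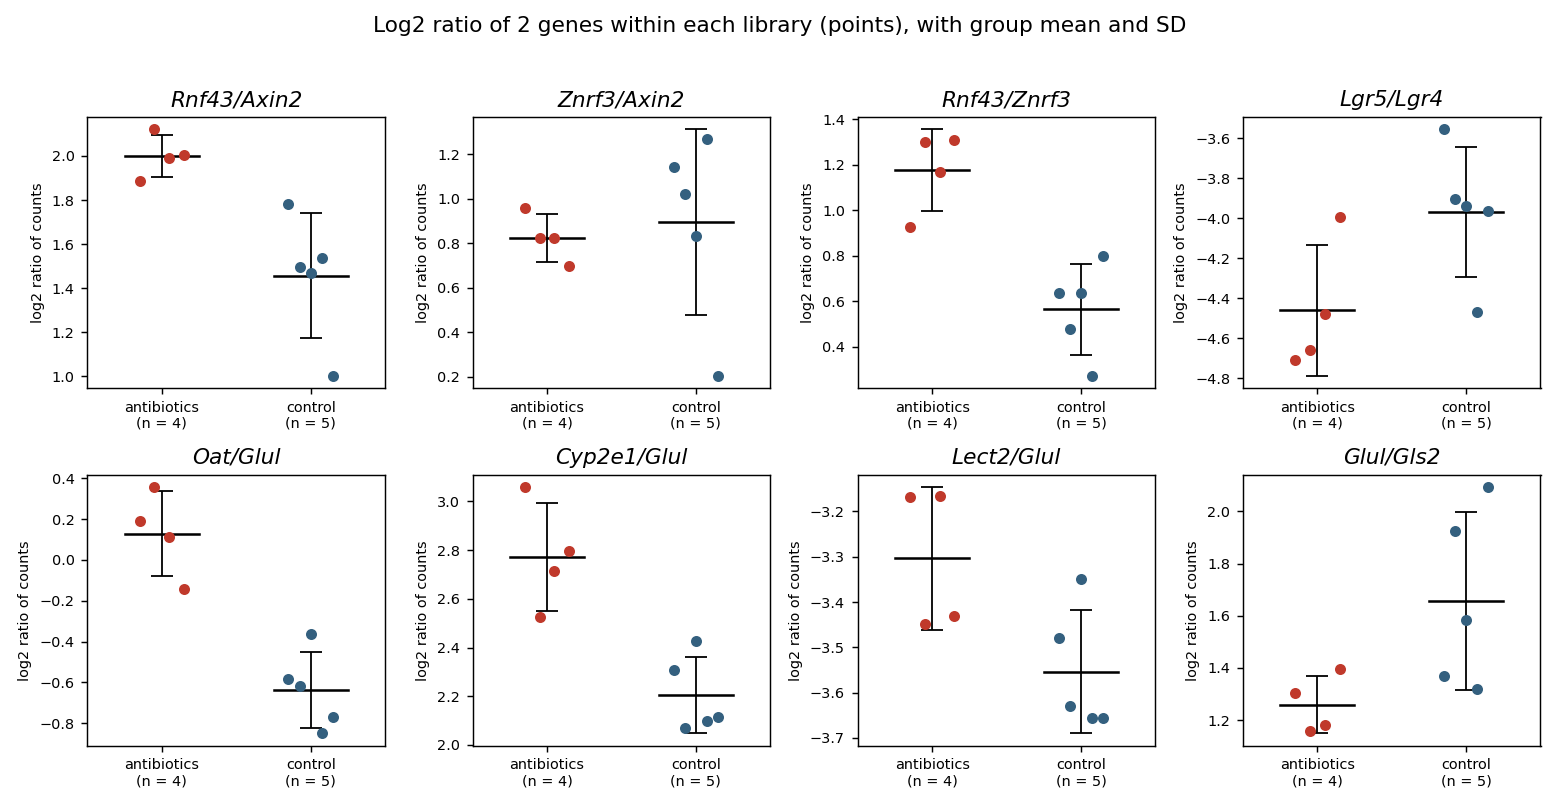
Log2 ratio of the counts of 2 genes within each library (0.5 added to each count) for the 4 antibiotics libraries (left, red) and 5 control libraries (right, blue), with group mean and SD; the vertical axes do not start at 0. The groups are apart for Rnf43/Axin2, Rnf43/Znrf3, Oat/Glul and Cyp2e1/Glul and overlap for the other 4 ratios.

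Among 12425 genes compared over the 9 libraries, those with a profile near that of Axin2 included Rfx4 and 9130221H12Rik, with root mean square differences of 0.117 and 0.123 on the log2 scale. Those nearest to Glul were Wdr83os, the aldehyde reductase Akr1a1 and the deubiquitinase Otub1, at 0.033, 0.036 and 0.037. None of these 5 passed edgeR's test, with adjusted p from 0.504 to 0.945. That was largely set in advance, as they were picked for likeness to Axin2 or Glul, which did not pass.

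Upstream of the members, 9 of 25 genes for Wnt ligands, R-spondins and their secretion were tested, and the other 16 had at most 21 counts in any library. Of the 9, 0 passed with edgeR, 1 had an unadjusted p under 0.05, and 0 passed with DESeq2 or limma-voom. Among all tested genes 2.68% passed with edgeR and 18.5% had an unadjusted p under 0.05, so such counts are ordinary for 9 genes. Wnt2 and Wnt9b, the main Wnt ligands of central vein endothelium in mice, gave opposite values without passing. Wnt2 measured 3.45 ± 0.63 CPM with antibiotics (SD, n = 4) and 2.88 ± 0.61 CPM in controls (SD, n = 5), with an adjusted p of 0.465. Wnt9b measured 1.15 ± 0.27 CPM with antibiotics and 1.69 ± 0.46 CPM in controls, with an adjusted p of 0.309. Wnt5b, a ligand known mainly for β-catenin-independent signalling, gave 0.70 ± 0.25 on the log2 scale (SE; adjusted p of 0.168), and Wls, which carries Wnt proteins to the cell surface, one of -0.17 ± 0.12 (SE, adjusted p = 0.483).

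Among 11 tested Wnt receptors and co-receptors of 17 listed, 2 rose and 0 fell, or 18.2% against 2.68% of all genes. Both were Frizzled receptors, the class of protein that Rnf43 removes from the membrane. The other tested Frizzled genes had log2 fold changes of -0.082 to 0.215 and did not pass. Fzd4 measured 47.5 ± 7.17 CPM with antibiotics (SD, n = 4) and 30.8 ± 5.04 CPM in controls (SD, n = 5), a log2 fold change of 0.63 ± 0.13 (SE) with adjusted p = 0.0335. Fzd8 measured 11.5 ± 2.08 CPM with antibiotics and 7.95 ± 0.74 CPM in controls, a log2 fold change of 0.52 ± 0.12 (SE) with adjusted p = 0.0475. In neither gene did the groups overlap. With each library omitted in turn, Fzd4 passed only without control library 3 or 5 (otherwise adjusted p of 0.0574 to 0.1), and Fzd8 in 0 of them (0.0600 to 0.118), nor with limma-voom (0.0523), without the filter on low counts (0.0574) or after thinning (0.0918). For the co-receptor Lrp5 the log2 value was -0.39 ± 0.10 (SE; adjusted p of 0.0703 with edgeR, 0.0312 with edgeR without control library 3, and 0.0144 with DESeq2). The other 6 listed receptors had at most 9 counts in any library.

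Inside the cell, no listed component of the pathway passed edgeR's test over all 9 libraries. With 2.68% of all genes passing, 0 is an ordinary count in lists this short. An unadjusted p under 0.05 was reached by 18.5% of all genes. Of 14 tested genes of the destruction complex and Dishevelled, 0 passed, 2 had an unadjusted p under 0.05, and 1 passed with DESeq2 and 0 with limma-voom. That gene was Axin1, the constitutive counterpart of Axin2, at 18.8 ± 0.93 CPM with antibiotics (SD, n = 4) and 23.0 ± 2.02 CPM in controls (SD, n = 5), with adjusted p of 0.0785 in edgeR, 0.0307 in DESeq2 and 0.043 in edgeR without control library 3. Ctnnb1, which encodes β-catenin, measured 174 ± 12.9 CPM with antibiotics and 192 ± 11.4 CPM in controls (adjusted p = 0.358). Of 12 tested TCF factors and nuclear partners, 0 passed with edgeR, 2 had an unadjusted p under 0.05, and 1, the corepressor Tle3, passed with DESeq2 (adjusted p = 0.0447) and 0 with limma-voom. In edgeR Tle3 had a value of 0.39 ± 0.11 on the log2 scale (SE) without passing (adjusted p = 0.0875). The 6 tested extracellular inhibitors had 0 passing with any of the 3 tools and 0 at an unadjusted p under 0.05. Notum, an enzyme that inactivates Wnt ligands and is itself a β-catenin target, measured 17.2 ± 2.74 CPM with antibiotics and 17.9 ± 3.30 CPM in controls.

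Of 15 other β-catenin targets 10 were tested, and 0 passed with edgeR, DESeq2 or limma-voom, with 1 at an unadjusted p under 0.05. The shares of all tested genes in edgeR were 2.68% passing and 18.5% at that unadjusted level. Their median log2 fold change was 0.00, against -0.01 for all tested genes. Nkd1, a feedback inhibitor like Axin2, had a value of 0.19 ± 0.16 (SE, adjusted p = 0.558). Ccnd1, which encodes cyclin D1, measured 12.02 ± 2.35 CPM with antibiotics (SD, n = 4) and 18.0 ± 11.2 CPM in controls (SD, n = 5), with 1 control at 37.0 CPM, and without control library 5 its log2 fold change was -0.12 against -0.56 with it. Cd44 measured 3.87 ± 0.65 CPM with antibiotics and 6.13 ± 2.96 CPM in controls (adjusted p = 0.258), and without control library 2 its log2 fold change was -0.29 against -0.65 with it. The summed level of 7 Kupffer cell markers, which are macrophage genes, was 160 to 203 CPM with antibiotics and 154 to 452 CPM in controls, highest in control library 2, 0 of 7 passed, none was at 0 in every library, and its part in the Cd44 values was not tested.

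**Figure D5:**
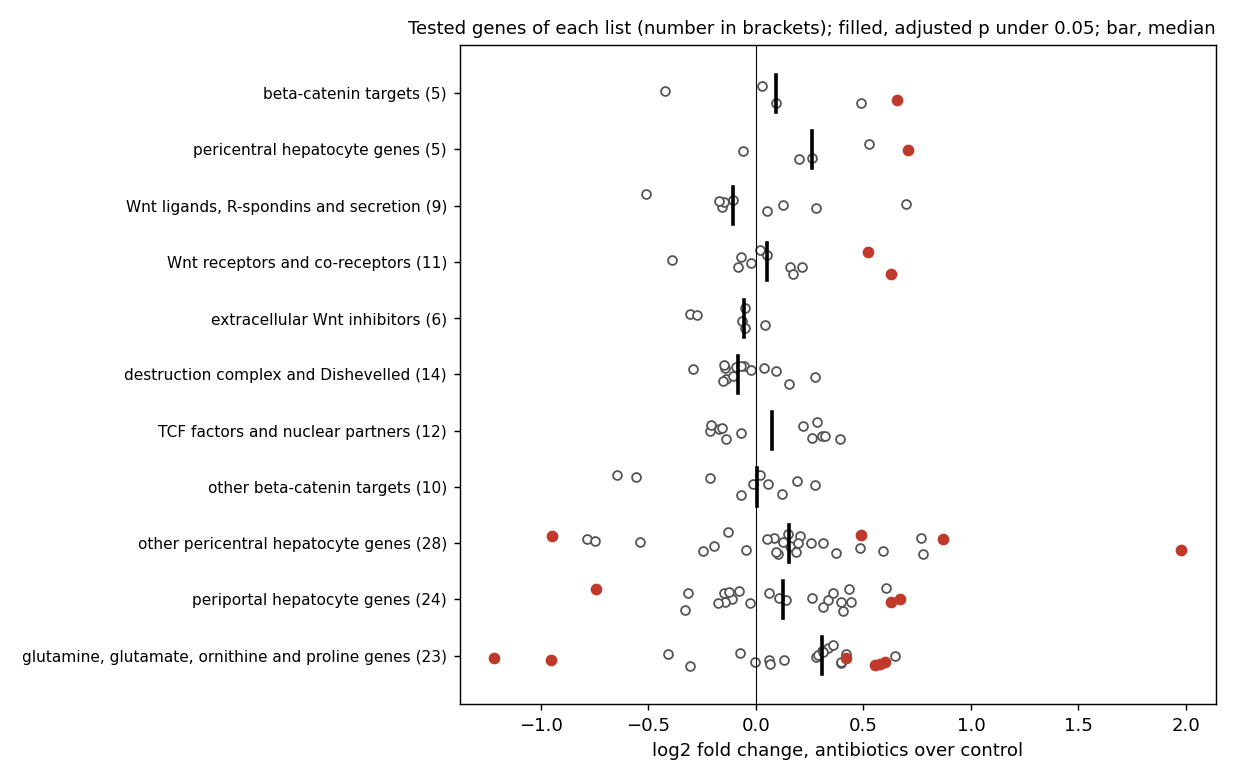
Log2 fold change, antibiotics over control, of every tested gene of each list; filled points had an adjusted p under 0.05 and bars are list medians. Filled points lie on both sides of 0 for the pericentral, periportal and glutamine lists, and 2 receptors are filled in the pathway lists.

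Of 28 other pericentral hepatocyte genes, all tested, 3 rose and 1 fell (14.3% against 2.68% of all genes), with a median log2 fold change of 0.16. Lhpp, a histidine phosphatase gene, measured 70.4 ± 3.77 CPM with antibiotics (SD, n = 4) and 50.1 ± 5.29 CPM in controls (SD, n = 5), with an adjusted p of 0.0178. Por, which passes electrons to every microsomal cytochrome P450 including Cyp2e1, measured 407 ± 85.3 CPM with antibiotics and 223 ± 57.0 CPM in controls (adjusted p = 0.0397). The bile acid enzyme Cyp7a1 rose and Cyp2c29, another P450, fell, with log2 fold changes of 1.98 and -0.95. Lhpp lost its call without antibiotics libraries 1, 3 or 5 (adjusted p of 0.0640, 0.0602 and 0.0533). Por passed without antibiotics library 2 and control libraries 3 and 5 and otherwise had adjusted p of 0.0713 to 0.119. Cyp7a1 passed without antibiotics library 2 and control libraries 3, 4 and 5 (otherwise 0.0518 to 0.0805), and Cyp2c29 without antibiotics library 2 and control library 3 (otherwise 0.0541 to 0.131).

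Periportal genes mark the opposite zone of the lobule. Of 24 listed, all tested, 2 rose (Asl and Sds) and 1 fell (Cdh1), or 12.5% against 2.68% of all genes, with a median of 0.12. An unadjusted p under 0.05 was reached by 12 of these 24 genes, by 13 of the 28 pericentral genes and by 18.5% of all genes. Asl, the argininosuccinate lyase of the urea cycle, had a log2 fold change of 0.67 ± 0.11 (SE) and lost its call only without antibiotics library 1 (adjusted p = 0.0544). Sds, serine dehydratase, passed only without control library 4 and Cdh1, E-cadherin, only without control library 2 among the 9 fits that left out 1 library (otherwise adjusted p of 0.0574 to 0.109 and of 0.0504 to 0.111). Cdh1 also missed the threshold after thinning (0.0547). Gls2 is the periportal glutaminase, which turns glutamine into glutamate. It measured 362 ± 27.2 CPM with antibiotics (SD, n = 4) and 286 ± 38.6 CPM in controls (SD, n = 5), with adjusted p of 0.112 in edgeR and 0.0343 in DESeq2. The log2 ratio of Glul to Gls2 was 1.26 ± 0.11 with antibiotics and 1.66 ± 0.34 in controls, a difference of -0.40 that did not pass over the 8 ratios (exact permutation p = 0.0635, adjusted p = 0.0726).

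Enzymes and carriers that share metabolites with Oat and Glul held the most calls of any list. Of 23 tested genes of glutamine, glutamate, ornithine and proline handling (25 listed, 4 of them also in the periportal list), 4 rose and 2 fell, or 26.1% against 2.68% of all genes. An unadjusted p under 0.05 in edgeR was reached by 15 of these 23 genes and by 18.5% of all genes. The median log2 fold change was 0.31. Those that rose were Gpt, alanine aminotransferase (0.60 ± 0.08, SE), Prodh (0.58 ± 0.10) and Aldh4a1 (0.42 ± 0.08), which break proline down by way of the Oat product, and Slc38a3, a glutamine transporter (0.56 ± 0.09). Slc38a3 measured 1902 ± 98.8 CPM with antibiotics (SD, n = 4) and 1294 ± 115 CPM in controls (SD, n = 5), without overlap. The 2 that fell, named after their values were seen, were Aldh18a1, which makes the same glutamate semialdehyde from glutamate (-1.22 ± 0.25, adjusted p = 0.0330), and the neutral amino acid transporter Slc1a4 (-0.95 ± 0.21, adjusted p = 0.0397). Aldh18a1 passed only without control libraries 1, 3, 4 or 5 (otherwise adjusted p of 0.0543 to 0.106) and Slc1a4 only without control libraries 3 or 4 (otherwise 0.0509 to 0.116), and Slc1a4 did not pass with limma-voom (0.0642) or after thinning (0.0587). Aldh18a1 was low in both groups, at 1.58 ± 0.21 CPM with antibiotics and 3.65 ± 1.19 CPM in controls. Gpt kept its call whichever of the 9 libraries was omitted, while Slc38a3 and Prodh lost their calls without antibiotics libraries 1, 3 or 5 (adjusted p of 0.0533 to 0.0669 and of 0.0523 to 0.0669). Aldh4a1 also lost its call without control library 2 or 4 (0.0540 and 0.0547, and 0.0574 to 0.0780 without antibiotics libraries 1, 3 or 5). The mitochondrially encoded mRNA sums given with Oat apply to these libraries too, and their part in these genes was not tested.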

How the data were processed

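RNA was extracted with Trizol and sequenced from Illumina TruSeq Stranded mRNA libraries, per the labels' protocols. The submitters' processing notes name Salmon and GRCm38, and the authors deposited 1 table of estimated counts by gene. Neither its version and settings nor the annotation and the use of strand are stated. All deposited values were whole numbers and were used as they stood. All 54393 identifiers occur in GENCODE M21. Library totals ran from 15422891 to 59179622, so low genes such as Lgr5 are measured least precisely in the 3 shallow antibiotics libraries.

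Genes were kept by filterByExpr (minimum count 10, minimum total 15), scaled by TMM and fitted over the whole table with edgeR 4.0.16 in R 4.3.3 (quasi-likelihood F test, group as the only term, Benjamini-Hochberg adjustment over 14873 genes). The SE is the log2 fold change divided by the square root of F, and intervals use the fit's moderated degrees of freedom. Ratios of 2 genes (8 pairs) were tested by exact two-sided permutation. The scripts were tested on simulated data. Alternatives were DESeq2 1.42.0, limma-voom 3.58.1, other scalings, filters and thresholds, thinning, a fit with replicate number as a block, and leaving out single libraries. BLAST+ 2.17.0 served to find near copies, defined by 95% identity or more across 200 nt. No pair of libraries of a group agreed within sampling noise (lowest chi-square per degree of freedom 20.2).

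Named genes are the 10 members, up to 4 genes of each list with the smallest p, the genes of the ratios, and the 3 genes nearest to Axin2 and to Glul. A gene that this rule names is not reported here. The members, lists and ratios were chosen with earlier results of these data known.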

Additional observations from a re-analysis of the deposited data

Results flagged for a closer look

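In 3 of the 20 sets of libraries examined (10 genes in 2 groups), 1 library lay apart from the rest of its group by Dixon's criterion, which chance exceeds in about 1 set in 20. Axin2 was at 6.69 CPM in antibiotics library 5, against 5.23 to 5.35 CPM in the other 3. Control library 4 was low for Cyp2e1, at 3435 CPM against 4215 to 4464 CPM in the other controls, and for Lect2, at 63.6 CPM against 76.7 to 81.8 CPM. Without control library 4 the log2 fold change of Cyp2e1 was 0.47 (adjusted p = 0.123), against 0.53 with it.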

How the results depend on the processing

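Over all genes, edgeR called 398, DESeq2 976, the fit with a replicate block 169, and fits without 1 library 36 to 455; at adjusted p under 0.01 and 0.1 the counts were 20 and 937. Of the 10 members 2 passed in the main analysis, 4 with DESeq2, 1 (Oat) with the replicate block, 0 to 3 without 1 library, and 0 and 4 at the other thresholds. Of the listed genes 15 passed, 33 with DESeq2 and 1 to 16 without 1 library. DESeq2 called 9 of the 28 other pericentral genes, 8 of the 24 periportal genes and 13 of the 23 tested glutamine list genes. It called 976 of all 14873 tested genes. Of the 8 ratios 4 passed, 0 to 5 without 1 library and 0 with the replicate block; with 4 pairs the smallest exact p is 0.125, and with 4 libraries in each group it is 0.0286, so p-values under 0.05 after adjustment are out of reach for pairs. Without control library 1, 2 or 5 the 4 ratios were all at that floor for 4 libraries against 4. It adjusts to 0.0571 when 4 of 8 ratios share it. Without control library 3 or 4, also 4 libraries against 4, 5 ratios passed the exact permutation test, each at an adjusted p of 0.0457. A call at the floor therefore depended on how many of the 8 ratios shared it. The cause of the losses was not tested. Correlations of deviations between same-numbered libraries ran from -0.06 to 0.10, and the numbers were not taken as pairs. The best correlated control carried the same number for antibiotics libraries 3 and 5 but not for 1 and 2, which does not settle whether the numbers mark pairs. With the block in edgeR, Rnf43, Por, Fzd8 and Cdh1 had adjusted p of 0.0748, 0.0623, 0.0755 and 0.0743. The members' log2 fold changes kept their direction under every alternative except Axin2 (-0.01 to 0.23) and Znrf3 (-0.02 to 0.10), neither of which passed in any. Counts under about 100 per library, as for Lgr5 and Axin2 in the shallow libraries, limit precision.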
